A study of Drosophila melanogaster with 2 samples.

Results

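Dref, BEAF-32, M1BP, Trf2 and pzg encode Drosophila factors that bind or act at housekeeping promoters, and they were taken as a set from a list of gene names. They are 5 of the 13968 protein-coding genes on the main chromosome arms. The question described here is where CG8478 was found at the promoters of these 5 genes. CG8478 had been fused to enhanced green fluorescent protein (eGFP) and was pulled down from chromatin with an antibody against GFP. The chromatin came from whole Drosophila melanogaster embryos of the transgenic strain CG8478-GFP, aged 0 to 24 h, sheared by sonication into pieces of 200 to 800 bp. All libraries form 1 group of 2 biological replicates, with no second genotype, age or treatment, and the control experiment that the labels name was not analysed here. Whole embryos mix all cell types, so a peak cannot be placed in any one of them, and the labels do not say which promoter drives the fusion protein.

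Promoters of broadly expressed fly genes often lack a TATA box and carry other elements. The DNA replication-related element (DRE) is bound by the zinc finger protein DREF, the product of Dref. The insulator protein BEAF-32 recognises clusters of CGATA, letters that also lie within the DRE. M1BP is the zinc finger protein that binds motif 1, an element of many ribosomal protein and other housekeeping promoters. TRF2, a relative of the TATA-binding protein encoded by Trf2, serves promoters without a TATA box and was purified in a complex with DREF. Pzg (putzig, or Z4), a zinc finger protein of that complex, is also linked to the nucleosome remodelling factor NURF.

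The genome sequence at the start sites shows how the promoters of these genes differ from each other. The letters were read from the RefSeq Release 6 genome (dm6), in the direction of each gene, and run from at most 150 bases upstream through the first 30 bases of the transcript. They stop short where the 5′ UTR of a neighbouring gene begins. Capitals mark a DRE with 1 mismatch in Dref and GAGAG runs at the proximal Trf2 start site. In the M1BP and pzg stretches no letters are capitals, since none of the 9 motifs searched occurs there. The motifs were the DRE (TATCGATA), the letters CGATA, the core of motif 1 (GGTCACAC), an E-box with the letters CAGCTG, the letters TATAAA of the TATA box, the letters GAGAG, and motif 1, motif 6 and motif 7 by their full degenerate consensus, all on both strands. The DRE holds CGATA, and the core is part of motif 1.
Dref promoter, chr2L:9967200-9967312, minus strand: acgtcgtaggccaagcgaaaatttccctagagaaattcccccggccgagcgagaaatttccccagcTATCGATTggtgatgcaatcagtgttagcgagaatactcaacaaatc
pzg promoter, chr3L:21285963-21286128, plus strand: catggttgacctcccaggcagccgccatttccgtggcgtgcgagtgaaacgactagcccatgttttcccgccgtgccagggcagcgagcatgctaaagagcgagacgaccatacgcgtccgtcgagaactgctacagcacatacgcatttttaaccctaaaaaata
Trf2 proximal promoter, chrX:8421215-8421394, plus strand: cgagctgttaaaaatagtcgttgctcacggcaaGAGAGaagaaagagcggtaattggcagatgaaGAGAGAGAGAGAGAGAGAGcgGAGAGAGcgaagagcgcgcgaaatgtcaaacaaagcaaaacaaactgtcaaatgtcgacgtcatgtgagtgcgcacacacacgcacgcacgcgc
M1BP promoter, chr3R:8731669-8731848, minus strand: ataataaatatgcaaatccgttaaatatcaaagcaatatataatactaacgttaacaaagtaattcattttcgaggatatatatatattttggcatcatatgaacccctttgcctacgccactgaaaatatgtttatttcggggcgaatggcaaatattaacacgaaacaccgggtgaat

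A further pair of 30-base stretches is shown because they hold the only motif match next to the pzg summit and the match to motif 6, a rare promoter element, upstream of the distal Trf2 start site. Capitals mark CGATA, read on the opposite strand, and motif 6.
pzg element, chr3L:21285908-21285937, plus strand: aaataattacgtTATCGtaatgaacggcaa
Trf2 distal element, chrX:8409171-8409200, plus strand: ggattttttTTTAGTATTTTTtcgcggcat

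CG8478 had a promoter peak at Dref, BEAF-32 and pzg, and none at M1BP or Trf2. A promoter peak is an entry of the authors' conservative list, made from both replicates, whose summit lies within 500 bp of an annotated start site. These are 3 of the 5 genes, against 22.6% of all protein-coding genes (3152 of 13968). In the authors' ranked list, which keeps entries far below their threshold, 4 of the 5 genes had an entry in the same window, M1BP being the exception. The share for all protein-coding genes was 76.0% (10614 genes), so an entry in the ranked list alone sets a gene little apart. The peak lists hold no read counts, so sequencing depth is unknown, and with 2 replicates and no second group no p-value is given.

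Signal in the lists is the authors' peak signal, whose scale is not stated, and it is used here to order peaks within a list. Among the 2577 conservative promoter peaks the median signal was 142.23, with quartiles at 82.29 and 254.48 and a maximum of 2181.38. The ranked lists also give the irreproducible discovery rate (IDR), a measure of how far ranks repeat between the inputs compared, written here as −log10 IDR. No conservative entry had a −log10 IDR under 2.0. The error between replicates was taken from the log2 ratio of the 2 input signals, input 2 over input 1, at 2471 conservative promoter peaks with distinct inputs. Its median was -0.17, its SD 0.56, and 95% of peaks lay between -1.32 and 0.86. All these peaks had passed the IDR threshold, so this spread leaves out entries whose ranks repeat less between replicates.

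**Figure D1:**
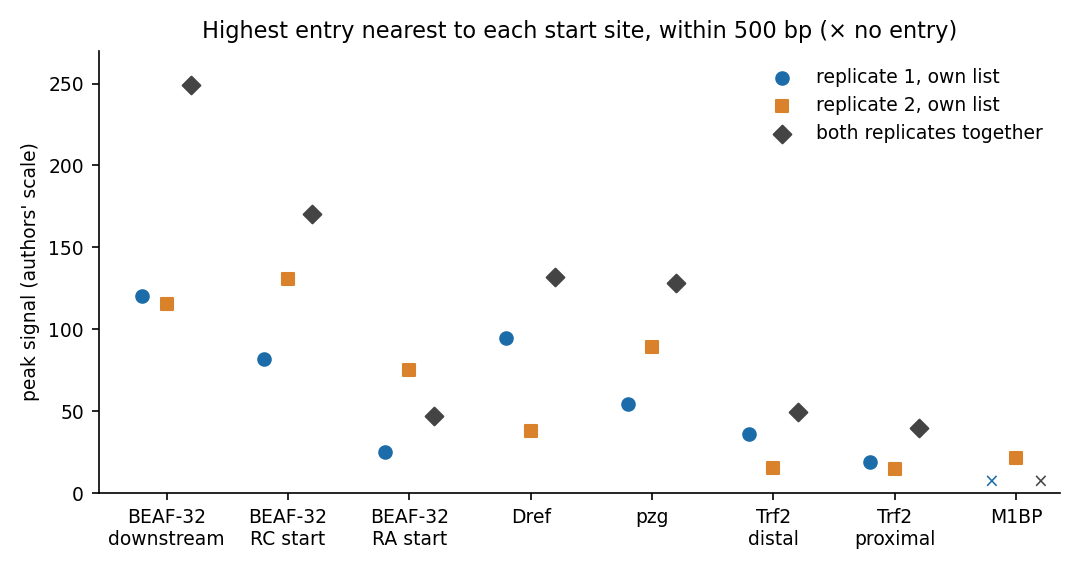
Peak signal (authors' scale) of the highest entry within 500 bp of each start site, with each entry drawn at its nearest start site of the gene, in the ranked list of replicate 1 (circles), of replicate 2 (squares) and of both replicates together (diamonds), with × for no entry. BEAF-32 downstream has the highest combined signal, 248.9, Dref and pzg sit side by side at 131.83 and 128.54 with replicates in opposite order, and the entries at the BEAF-32 RA start, Trf2 and M1BP have combined signals under 50 or none.

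Dref carried a peak over its start site that was close to the middle of the promoter peaks. Dref (FBgn0015664) lies on chromosome arm 2L, at chr2L:9964147-9967229 on the minus strand, and both its transcripts begin at 9967229. The peak, chr2L:9966960-9967363, had its summit at 9967162, 67 bp inside the 5′ UTR of Dref. Its signal was 131.83 in the conservative list, rank 1417 of 2904, and 46.5% of promoter peaks were lower. The replicates differed: signal in replicate 1's own ranked list was 94.51 and in replicate 2's 38.09, a mean of 66.3 ± 39.9 (SD, n = 2). Replicate 1 alone passed its own threshold here, with a −log10 IDR of 4.38, whereas replicate 2 had 0.06 and its thresholded list holds no Dref peak. The input log2 ratio of -1.31 lay at the lower edge of the range of 95% of promoter peaks. After subtracting the median ratio, 4.37% of promoter peaks had a ratio of at least that size in either direction. The conservative list holds a second summit of the same pair of inputs at 9967364, with a signal of 2.99.

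Dref shares its peak with RpL13, a gene for a protein of the large ribosomal subunit. RpL13 is transcribed away from Dref, from a pair of start sites, the nearer one 84 bp upstream of the Dref start, and the second summit lay in its 5′ UTR. Both genes therefore count as having the promoter peak, and the signal cannot be divided between them. Within 100 bp of the main summit there was no exact DRE, but there were 2 CGATA matches and 2 GAGAG matches. One CGATA match, centred 15 bp upstream of the start site, is part of the capitals shown above for Dref. A DRE with 1 mismatch was found in 57.9% of conservative promoter peak windows and in 19% of windows of the same length around protein-coding start sites.

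BEAF-32 held the peak with the highest combined signal of the set, downstream of its RB start site, and a second peak over its RC start site. BEAF-32 (FBgn0015602) lies at chr2R:14770469-14772630 on the plus strand, with transcripts RA, RC and RB starting at 14770469, 14770916 and 14771301. The peak with the higher signal, chr2R:14771508-14771826, had its summit at 14771615 in a coding exon, 314 bp downstream of the RB start. A distance that long to the nearest start site of any gene was found in 2.37% of conservative promoter peaks. Its signal was 248.9, rank 686 of 2904, and 73.9% of promoter peaks were lower. The replicates were nearly equal there, at 120.14 and 115.42, a mean of 117.8 ± 3.3 (SD, n = 2), with −log10 IDR values of 5.0 and 3.52. The summits of replicate 1 and replicate 2 alone lay 15 and 40 bp from the combined one, the first in the same exon and the second in the intron after it. A lower summit of the same inputs, over 500 bp from every BEAF-32 start site, had a signal of 13.36.

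A further BEAF-32 peak lay at the RC start site. It covered chr2R:14770766-14771037, with the summit at 14770893, 23 bp upstream of the start. Its signal was 170.36, rank 1118 of 2904, and 57.7% of promoter peaks were lower. Replicate 1 gave 81.75 and replicate 2 gave 130.97, a mean of 106.4 ± 34.8 (SD, n = 2), and both replicates' own thresholded lists hold it. The input log2 ratio of 0.68 was within the range of 95% of promoter peaks. The antisense RNA gene asRNA:CR42254 has start sites 26 bp from the RC start and 6 bp from the RB start, and the summit at RC lay in an exon of it. ChIP signal has no strand, so a peak here cannot be given to one gene or the other.

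The RA start site of BEAF-32 had an entry just outside the conservative list. That entry, chr2R:14770371-14770556, had a signal of 46.79 and a −log10 IDR of 1.86, against the lowest value of 2.0 inside the list. The larger thresholded list of the series, called the optimal list here, includes it. Replicate 2 alone gave 75.18 with a −log10 IDR of 4.53 and replicate 1 alone gave 25.25 with 1.35, so replicate 2's own thresholded list includes it and replicate 1's does not. The input log2 ratio of 1.57 was outside the range of 95% of conservative promoter peaks. That range comes only from peaks past the IDR threshold, which this entry did not reach, so it is no independent comparison. An exact DRE lies at chr2R:14770259-14770266, centred at -206.5 bp from the RA start. This DRE is outside the combined entry and replicate 2's own entry, but inside replicate 1's wider one, chr2R:14770212-14770601. It is the only exact DRE within 400 bp of any start site of the 5 genes, and 7.98% of all protein-coding promoters hold one between 250 bp before and 50 bp after the start. CGATA occurred 2 times within 100 bp of the downstream summit and 1 time within 100 bp of the RC summit.

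At pzg, the peak lay between the gene and its divergent neighbour and its summit was closer to the neighbour. The gene (FBgn0259785) lies at chr3L:21286099-21290310 on the plus strand, and both its transcripts start at 21286099. The peak, chr3L:21285732-21286135, had its summit at 21285934, 165 bp upstream of the pzg start. CG12974 starts 137 bp away on the other strand, and the summit lay in its 5′ UTR, 28 bp from that start. Signal was 128.54, rank 1448 of 2904, and 45.4% of promoter peaks were lower. Replicate 1 gave 54.71 and replicate 2 gave 89.06, a mean of 71.9 ± 24.3 (SD, n = 2), and the peak is in both replicates' own thresholded lists with −log10 IDR values of 2.27 and 4.3. The input log2 ratio of 0.70 was within the range of 95% of promoter peaks. If each peak is given to its nearest start site alone, this one goes to CG12974 and pzg has none. That leaves 2 of the 5 genes with a peak, against 16.2% of all protein-coding genes (2268 of 13968) in that setting. The CGATA match shown above for pzg was the only match of the 9 motifs within 100 bp of the summit, centred 12 bp from it.

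**Figure D2:**
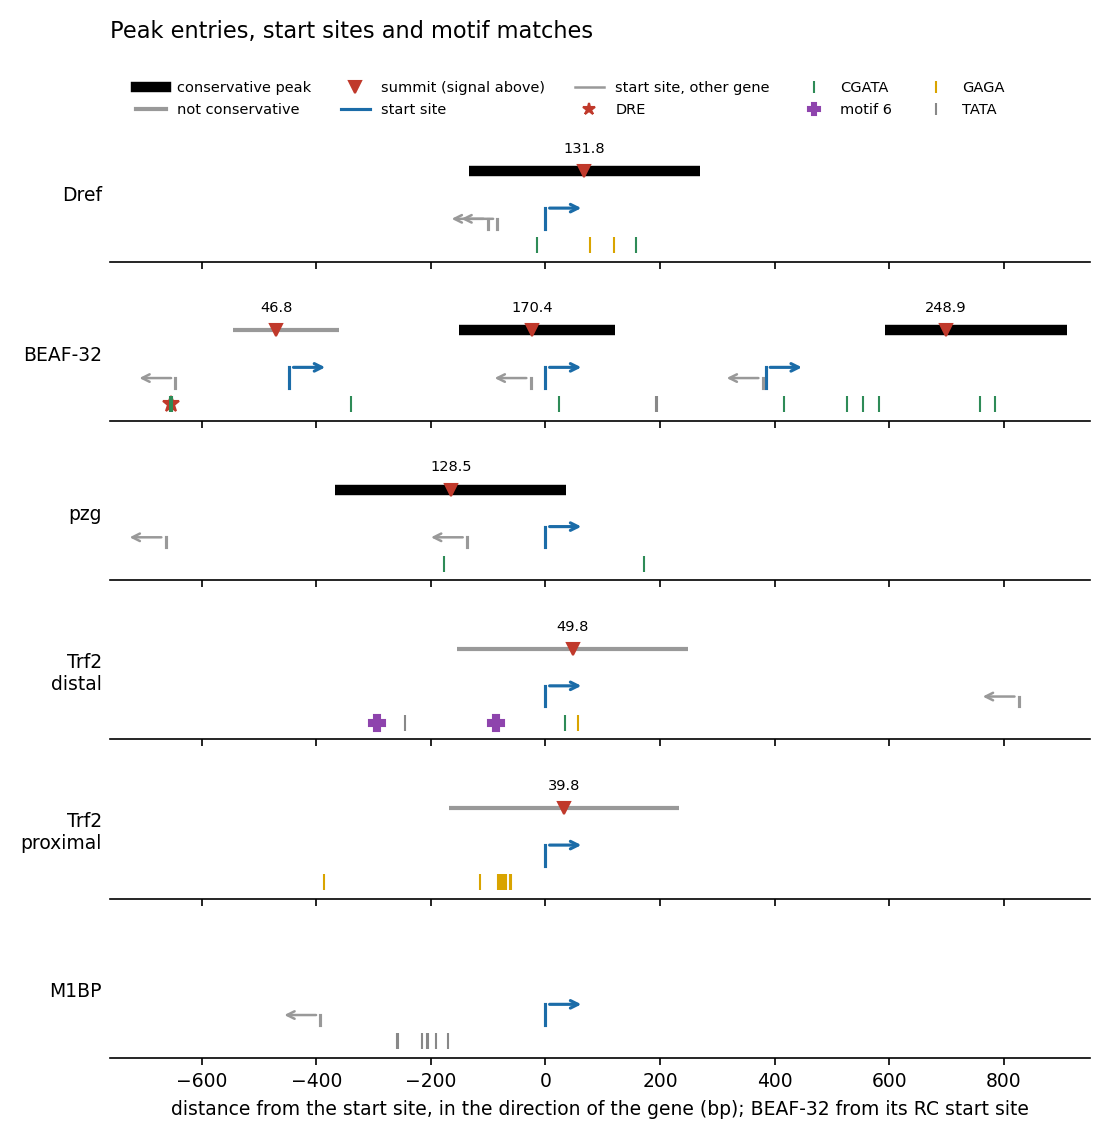
Entries of the between-replicate ranked list with a signal over 20 (bars, with signal above the summit), start sites and motif matches, against distance in bp from the start site in the direction of each gene. Black bars are in the conservative list and thin grey bars are not; motifs were searched within 400 bp of start sites and 100 bp of conservative summits, and E-box and motif 7 matches are not drawn. The peaks of Dref and pzg span a divergent pair of start sites, BEAF-32 has an entry at or downstream of each start site, and M1BP has none.

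Trf2 had low entries at both of its start sites and no conservative peak nearby. Trf2 (FBgn0261793) lies at chrX:8409272-8433011 on the plus strand. Its distal start site at 8409272 serves 4 annotated transcripts and its proximal one at 8421365 serves 2. The entry at the distal site, with its summit 48 bp downstream, had a signal of 49.75, rank 3826 of 113077 ranked entries, and a −log10 IDR of 0.33. Signal there was 36.22 in replicate 1 and 15.37 in replicate 2. The entry at the proximal site, with its summit 33 bp downstream, had a signal of 39.83 and a −log10 IDR of 0.58, from 19.02 in replicate 1 and 14.83 in replicate 2. Neither site passed the threshold in either replicate's own list. The nearest conservative summit was 10527 bp from the distal start site.

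The Trf2 start-site entries did not rise above the highest signal elsewhere in the gene. Over 500 bp from its start sites Trf2 held 19 ranked entries, the highest with a signal of 50.17 and none with a −log10 IDR above 0.41. The distal start site also overlaps the 3′ UTR of lawc on the other strand. The motif 6 match printed above is centred at -86.5 bp from the distal start, and 1.43% of protein-coding start sites have one within 100 bp. Another motif 6 match was found at -293.5 bp. Within 100 bp of the distal start there were also a CGATA match, centred 34 bp downstream, and a GAGAG match, centred 57 bp downstream. From the summit of the entry there they were centred at -14 and 9 bp. CGATA is thus also found at this start site without a conservative peak, and 37.1% of start-site windows hold it. Within 100 bp of the proximal start site there were 10 GAGAG matches, most of them overlapping, and nothing else of the 9 motifs, and 25% of start sites have at least 1 GAGAG in that window.

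M1BP was the gene with the least signal. M1BP (FBgn0037621) lies at chr3R:8729790-8731698 on the minus strand, with 1 annotated transcript starting at 8731698. The between-replicate ranked list has no entry within 500 bp of it, the nearest ranked summit being 1146 bp away and the nearest conservative summit 16017 bp away. Replicate 2's own ranked list has an entry with a signal of 21.73, 109 bp downstream of the start, with a −log10 IDR of 0.05, and replicate 1's has none. Its divergent neighbour CG8202 starts 393 bp away and has no promoter peak either. The M1BP promoter, from 250 bp before to 50 bp after the start, was 25.6% G and C, and 1.19% of protein-coding promoters were lower, against a median of 39.2%. It held 5 TATAAA matches, all over 150 bp upstream of the start, and 42.3% of promoters hold at least 1. Its own motif, motif 1, was not among the matches.

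Base composition varied as much within BEAF-32 as between the genes. The GC content of the same stretch was 30.6% at the RA start, 56.5% at the RC start and 32.6% at the RB start. Dref had 43.9%, pzg 45.5%, and Trf2 43.5% at the distal and 47.5% at the proximal start. The peaks at Dref, pzg and the RC start lay at promoters above the median of all genes. The peak with the highest combined signal was nearest to RB, which is below that median. The Trf2 start sites, without a conservative peak, were above the median. With so few start sites this is a list of values.

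Set beside each other, the order of the peaks was only partly stable between replicates. The downstream BEAF-32 peak was above Dref and pzg in both, with 120.14 against 94.51 and 54.71 in replicate 1 and 115.42 against 38.09 and 89.06 in replicate 2. Dref was higher than pzg in replicate 1 and lower in replicate 2, so their near-equal combined signals of 131.83 and 128.54 do not differ beyond the spread between replicates. The RC peak of BEAF-32 was above pzg in both replicates but below Dref in replicate 1, at 81.75 against 94.51. In replicate 2 the RC peak, at 130.97, was also above the downstream peak, at 115.42, so which BEAF-32 peak was higher depended on the replicate. The higher Trf2 entry, with 36.22 and 15.37, was below each conservative peak of the set in both replicates.

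**Figure D3:**
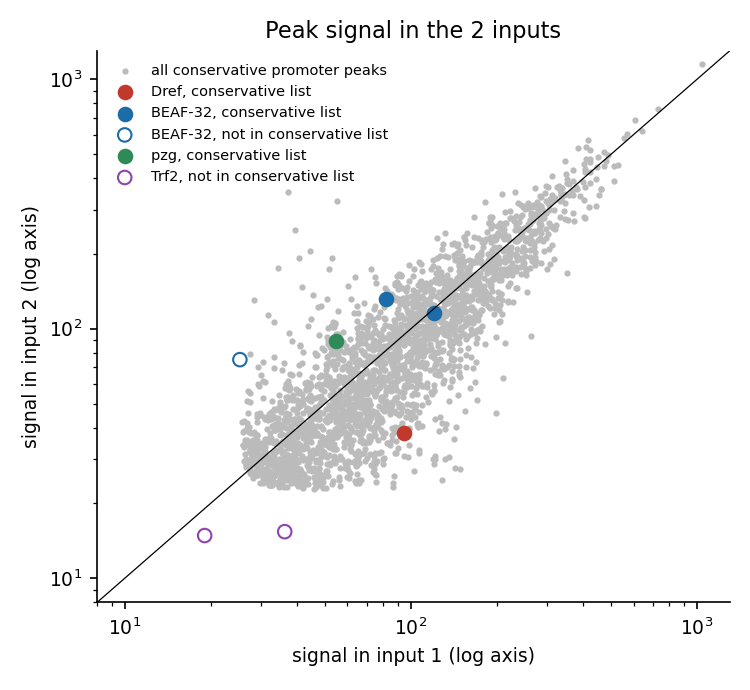
Signal of each promoter peak in input 1 (x, log axis) and input 2 (y, log axis) of the between-replicate comparison, 1 replicate each; grey points are the 2471 conservative promoter peaks with distinct inputs, filled points those at Dref, BEAF-32 and pzg, and open points entries outside the conservative list, all with a signal over 20. Dref lies below the line of equal signal (log2 ratio -1.31), pzg and the RC peak of BEAF-32 above it, the downstream BEAF-32 peak on it, and the Trf2 entries at the lower left, below the grey points.

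Most windows at these peaks held CGATA, as did most conservative promoter peak windows, and none held an exact DRE or the core of motif 1. With so few windows, these counts are a list of values. Of the 5 windows reaching 100 bp to either side of the conservative promoter summits at Dref, BEAF-32 and pzg, 4 held CGATA, the low second summit at Dref being the exception, against 76.4% of conservative promoter peak windows and 37.1% of the windows around protein-coding start sites. None held an exact DRE, against 29.4% of promoter peak windows (757 of 2577) and 6.44% of start-site windows. None held the motif 1 core, for which the shares were 8.69% and 5.68%. Motif 6, motif 7, the E-box and the TATA box were also at 0 of 5, and GAGAG was at 1 of 5. CGATA without DRE or motif 1 core was found in 1089 of the 2577 promoter peak windows (42.3%), whose median signal was 161.4 against 129.2 in the rest. Across all promoter peaks the median signal was 171.6 with CGATA and 73.7 without. It was 191.2 with an exact DRE and 122.6 without, and 118.2 with the motif 1 core and 144.1 without. Every exact DRE holds CGATA, so the windows without a DRE include all those without CGATA. The same is true of the rest with the median of 129.2. A match describes the letters in a window and is no measure of which factor binds there.

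**Figure D4:**
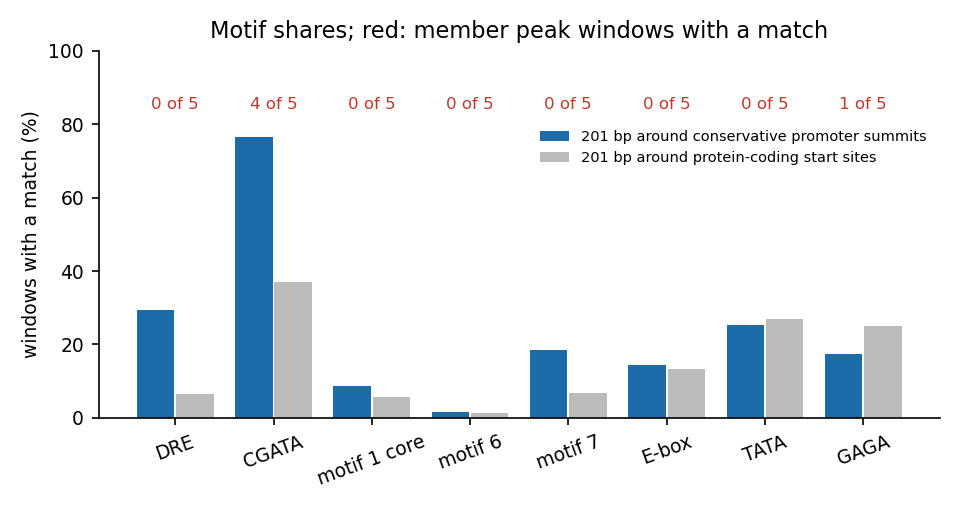
Share of windows (%) holding each motif on either strand within 100 bp, around the 2577 conservative promoter summits (blue) and around 19276 protein-coding start sites (grey); red text gives how many of the 5 peak windows at Dref, BEAF-32 and pzg hold it. CGATA is in 4 of 5, GAGAG in 1 of 5 and every other motif drawn in 0 of 5.

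Divergent neighbours were common at these genes. A protein-coding start site on the opposite strand within 500 bp upstream was found at Dref (84 bp), pzg (137 bp) and M1BP (393 bp), and not at BEAF-32 or Trf2. Among all protein-coding genes 27.3% have one, and 46.1% of those had a promoter peak (1757 of 3815), against 13.7% of the others (1395 of 10153). A peak counts for every gene within 500 bp, so genes in the first class can also be credited with the peak of the neighbour. How far this raises their share was not tested. By this protein-coding count, BEAF-32 is a gene with peaks in the class where peaks were rarer, and M1BP a gene without one in the other class. BEAF-32 does have a non-coding neighbour on the opposite strand, asRNA:CR42254. It starts 199 bp upstream of the RA start, 26 bp upstream of RC and 6 bp upstream of RB.

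Genes that work with these factors were described by lists of names. The lists were chosen with earlier results of these data known, so their counts are described and not tested. Of 16 genes for partners at housekeeping promoters, 10 had a promoter peak (62.5%, against 22.6% of all protein-coding genes), with a median signal of 203.2. The highest were row (638.08), a zinc finger partner of a heterochromatin protein, nsl1 (586.5), a subunit of the NSL acetyltransferase complex, JIL-1 (266.87), a histone kinase, and Cp190 (230.06), an insulator cofactor. MBD-R2, Ibf1, Ibf2, dwg, mof and Chro also had one, Ibf1 and Ibf2 sharing a single peak, while gfzf, ZIPIC, dgt1, Rcd1, Rcd5 and wds had none. All 4 genes of the NURF remodeller had a peak: Iswi, its ATPase (494.7), Caf1-55, a histone-binding subunit (173.33), E(bx), its largest subunit (112.66), and Nurf-38, a pyrophosphatase (99.71). The share of all protein-coding genes to set beside these 4 is again 22.6%. The median signal of the 4 was 143.0, close to that of all promoter peaks.

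None of the 5 genes for the TATA-binding protein family and TFIIA (Tbp, Trf, TfIIA-L, TfIIA-S and TfIIA-S-2) had a conservative promoter peak, against 22.6% of all protein-coding genes. Of 12 genes described as DRE-regulated, 5 had one (41.7%, against the same 22.6%). They were mtSSB (930.68), a mitochondrial DNA-binding protein, and PolA1 (485.26) and PolA2, subunits of DNA polymerase alpha. The others were PCNA (263.0), a sliding clamp in replication, and E2f1 (129.2), a cell cycle factor. Raf, TFAM, Cat, Tbp, Ras85D, mor and osa had none. Of 7 genes for factors of other promoter classes, Adf1 (531.18) and lolal (256.6) had one (28.6%, near the share of all protein-coding genes), and Trl, psq, cad, zld and Clamp had none. In these lists an exact DRE was in the peak window of 5 of the 10 housekeeping partners, 2 of the 4 NURF genes and 3 of the 5 DRE-regulated genes. Among the housekeeping partners, Ibf1 and Ibf2 were both counted for the peak they share. For factors of other promoter classes it was 1 of 2, and 29.4% of all conservative promoter peak windows held a DRE. The motif 1 core was in 0 of them, against 8.69%. CGATA was in 10 of 10, 4 of 4, 4 of 5 and, for other promoter classes, 2 of 2, against 76.4%.

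Some genes in these lists lack a conservative peak although the ranked list passes the same IDR there. Across the main arms, 105 ranked entries reach the lowest IDR value of the conservative list and are not among its 2904 peaks, with signals from 3.94 to 952.9. The latter is at osa, and Ras85D (358.91), TfIIA-S (187.25) and mor (169.76) have others; these 4 were singled out after their values were seen. With such entries counted, 8 of 12 DRE-regulated genes and 1 of 5 genes of the TATA-binding protein family and TFIIA have one. The share of all protein-coding genes under the same setting was 23.1% (3221 of 13968), and 1 of 5 is near it. None of the 105 lies at Dref, BEAF-32, M1BP, Trf2 or pzg. Per the file headers the thresholded lists were made with 1 more input file than the ranked lists, and the part of that file in the difference was not tested.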

How the data were processed

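The data are peak lists from anti-GFP ChIP-seq of 2 biological replicates, in dm6 coordinates per the file headers. Each entry has a signal from the authors' peak caller (scale not stated), a score the authors scaled from the IDR, and a −log10 q-value as deposited; the ranked lists add the −log10 IDR and the deposited signal of both inputs. The lists were made from the library alignments and a control alignment, per the file headers; which aligner and peak caller made them is not given in the sources used here. Depth is unknown.

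From these lists, entries with equal start and end were counted once, and the 7 main arms kept, which left 2904 of 2948 conservative entries, 3101 optimal, 2520 replicate 1 and 2225 replicate 2 peaks. A summit within 500 bp of a start site (Ensembl release 115, transposable elements left out) was a promoter peak, and every gene in reach counted. All 5 genes had the same coordinates in RefSeq. Motifs were matched on both strands within 100 bp of summits or start sites. No test was run. The genes and lists were chosen with earlier results of these data known; the text names the 5 genes, genes sharing their peaks, and from each list the 4 with the highest peaks with values and the rest by symbol. On simulated data, 400 of 400 summits and 200 of 200 motif copies were recovered. Alternatives changed the window, list, replicate, assignment and motif match. Python 3.11.15, NumPy 2.4.6, pandas 2.3.3 and matplotlib 3.10.9 were used.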

Additional observations from a re-analysis of the deposited data

How the results depend on the processing

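The count of 3 genes with a promoter peak ran from 2 to 3 over all alternatives: it was 2 when a peak counted for the nearest start site alone (pzg lost), ran from 2 to 3 with 1 replicate left out (Dref lost without replicate 1), and was 3 with windows of 250 and 1000 bp, the optimal list, the upper 50% by signal and ranked entries past the IDR threshold. That last setting was chosen after seeing the data. The share of all protein-coding genes with a promoter peak, 22.6% in the main setting, also moved. It was 16.2% with the nearest start site, 18.8% without replicate 1 and 19.5% without replicate 2. With windows of 250 and 1000 bp it was 19.8% and 24.8%. In the optimal list it was 23.5%, in the upper 50% by signal 14.0%, and past the IDR threshold 23.1%. The counts for the other lists below stand beside the same shares. The count for the TATA-binding protein family and TFIIA, 0, became 1 in the optimal list and 1 among ranked entries past the threshold. None of the 105 entries that the latter setting adds is in the optimal list, so different entries were counted. The count ran from 0 to 1 with a replicate left out. The NURF count of 4 became 2 in the upper 50% by signal, that of DRE-regulated genes rose from 5 to 8 among ranked entries past the threshold, and that of other promoter classes fell from 2 to 1 with the nearest start site. The number of genes with a DRE, 0, became 1 in the windows from 250 bp before to 50 bp after start sites (BEAF-32) and 1 with 1 mismatch allowed (Dref), and the number with the motif 1 core, 0, became 1 with 1 mismatch. The log2 input ratio of the downstream BEAF-32 peak changed sign, from -0.06 to 0.11, when the median over promoter peaks was subtracted; the cause is that subtraction. The share of conservative peaks lower than pzg was 50.1%, and 27.5% in replicate 1's own list. No paired analysis was possible because there is 1 group. Depth is unknown, so whether M1BP and Trf2 would pass in deeper libraries cannot be told.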
